A study of Rattus norvegicus with 24 samples.

Results

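Interferon-stimulated genes, the set that cells switch on after an interferon binds its receptor, were followed through a series on rat lung exposed to whole-cigarette smoke condensate (WCSC). The set held 38 gene symbols, split by role into 4 sensors of foreign RNA or DNA, 4 transcription factors, 15 antiviral effectors, 7 genes of the ISG15, ubiquitin and ADP-ribosyl systems, 5 interferon-inducible GTPases and 3 chemokines that bind the receptor CXCR3. The count files held 36 of the 38 among 16881 distinct symbols, and expression of Herc6 and Xaf1 was not analysed here. Of the 36, 35 had enough reads to be tested with 11421 genes in all. Cxcl11, with 108 reads over 15 of the 24 libraries, was present and not tested in the main fit. There were 8 groups of 3 libraries: wild-type lung as control or with 5, 10 or 20 mg/mL WCSC, each at 6 and at 12 days. The labels give the genotype WT for every group and strain, age, sex, route, vehicle and number of exposures are not stated in them. Whether replicates came from different animals is not stated, so each p-value measures the spread between these samples, which may be technical.

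Type I interferons bind the receptor of IFNAR1 and IFNAR2, and the kinases JAK1 and TYK2 then activate a complex that holds STAT2 and IRF9 and binds the interferon-stimulated response element of target promoters. Interferon gamma signals through its own receptor to the gamma-activated site, and many GTPases and CXCR3 chemokines are among the best known targets of that arm. In the lung these genes form a front line against respiratory viruses, and their products sense viral RNA, block viral entry or translation, tag proteins with ISG15 and draw in T cells.

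The promoters of the set are shown first because these 2 elements are what is known to tie the genes together. RefSeq promoter windows of the rat build GRCr8, from 250 bases before to 50 bases after the annotated start, were matched by symbol for 30 of the 38 genes, and Ddx58, Dhx58, Zbp1, Mx2, Ifit1, Ifit2, Isg15 and Usp18 were not matched. The expression files use the build rn6, so these coordinates serve the sequences only. Each window was searched on both strands for 2 copies of GAAA separated by any 2 bases, the core of the interferon-stimulated response element, and for the gamma-activated site TTCNNNGAA. The paired half-sites occurred in 18 of the 30 windows (60%), against 3.92% of all 33469 promoter windows of the same length. The gamma-activated site occurred in 11 of 30 (36.7%), against 8.87% of all windows, and 6 windows held both. A match is a description of the letters and not a measured binding site. The stretches below are written 5′ to 3′ on the strand of the gene, and capitals mark the paired half-sites, which read as TTTC where they lie on the other strand.
Irf7: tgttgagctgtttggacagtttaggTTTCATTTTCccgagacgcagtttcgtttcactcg
Ifih1: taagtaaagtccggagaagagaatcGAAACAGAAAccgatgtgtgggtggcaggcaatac
Ifit3: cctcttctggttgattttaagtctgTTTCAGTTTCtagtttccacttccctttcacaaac
Oas1a: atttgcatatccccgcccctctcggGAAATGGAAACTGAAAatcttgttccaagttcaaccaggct
Ifi44: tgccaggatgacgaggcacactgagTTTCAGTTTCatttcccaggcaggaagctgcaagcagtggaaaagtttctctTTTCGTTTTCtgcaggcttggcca
Igtp: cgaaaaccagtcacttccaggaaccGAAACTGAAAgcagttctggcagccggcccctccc
Irgm: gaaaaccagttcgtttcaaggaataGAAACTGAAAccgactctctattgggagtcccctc
These 7 were printed as examples that span the sensors, factors, effectors and GTPases. They lie at chr1:205800058-205800117, minus strand (Irf7), chr3:67683993-67684052, minus strand (Ifih1), chr1:241527257-241527316, plus strand (Ifit3), chr12:41330400-41330465, plus strand (Oas1a), chr2:243303791-243303891, minus strand (Ifi44), chr10:42874919-42874978, plus strand (Igtp) and chr10:33742578-33742637, minus strand (Irgm). In Oas1a the 2 marked pairs share their middle half-site, at positions -41 and -35 from the start. In both Igtp and Irgm a gamma-activated site stands just upstream of the pair, at -114 before -103 in Igtp and at -45 before -34 in Irgm, and Parp14 has the same order at -87 and -76. In Ifitm3 the order is the reverse, with the pair at -44 and the gamma-activated site at -33, and in Bst2 the site at -137 overlaps the first of 2 pairs at -131 and -125. Neither motif lay in the windows of Stat2, Mx1, Oasl, Cmpk2, Herc6, Trim25 or Parp9, which says only that these letters are not in those windows.

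**Figure D1:**
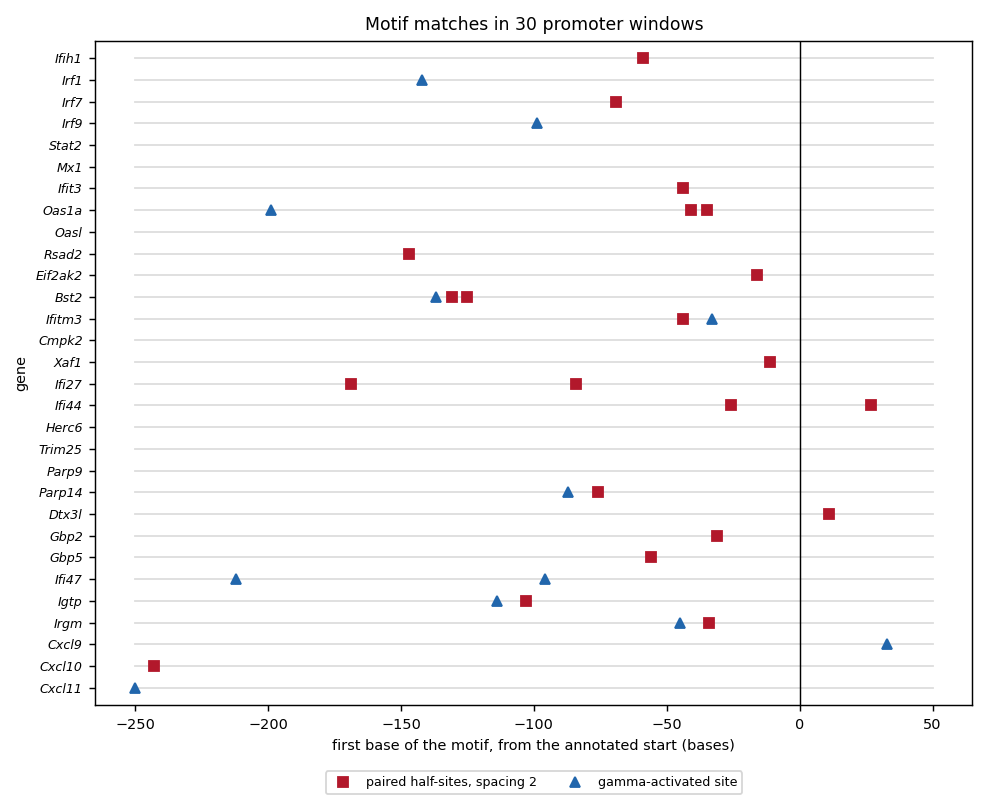
Position of each motif match (first base, in bases from the annotated start) in the promoter windows of 30 interferon-stimulated genes, with squares for paired half-sites and triangles for the gamma-activated site. Most squares lie within 150 bases upstream of the start, and Parp14, Igtp and Irgm each carry a triangle just upstream of a square.

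Total counts per library ranged from 4795667 to 11109713, and levels are given as CPM, counts per 1000000 reads, after TMM scaling, which corrects for library composition. QuantSeq reads come from transcript ends and were not divided by length here, so levels were compared between libraries and not between genes. Surfactant gene Sftpc stood at 3249 to 14251 CPM in the 24 libraries, so a marker of alveolar type II cells was present in each. At equal depth, 8 libraries had 11454 to 11751 detected genes against 11938 to 12476 in the other 16. These 8 low-detection libraries were replicates 1 and 2 of 5 mg/mL, replicates 1 and 2 of 10 mg/mL, replicate 2 of 20 mg/mL and control replicate 1 at day 6, and replicate 3 of 20 mg/mL and control replicate 1 at day 12. Replicate 2 of 20 mg/mL at day 12 stood apart in heart muscle genes, with a summed level of 2852 CPM against 13.5 to 192 CPM in the others. That library also had the lowest sum of 5 lung markers, Sftpc among them, at 16270 CPM against 22119 to 43308.5 CPM in the others. Its sums of 4 ciliated cell markers (164 CPM) and 3 B cell markers (64.1 CPM) were the highest of the 24 libraries.

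At 20 mg/mL and day 12 most interferon-stimulated genes had a higher mean than in the controls of that day. Of the 35 tested, 28 were higher and 7 lower, with a median log2 fold change of 0.24, against 51.3% of all genes higher and a median of 0.01. The 3 exposed libraries lay above all 3 controls for 7 of the 35 genes, 20.0% of them, while 3.56% of all genes did so. Those 7 were Mx1, Oasl, Ifi27, Dhx58, Irgm, Igtp and Cxcl10, named here from their values. Genes of the set often stood high or low together in a library, with 5 to 31 of 35 above their own median. The 35 are therefore not separate observations, here or in the other comparisons, and 1 or 2 libraries can shift many of them. Ifit1 was the 1 gene for which all exposed libraries lay below all controls, against 4.11% of all genes. None of these differences passed the test: edgeR's quasi-likelihood method called 0 of 35 at an adjusted p under 0.05 and 0% of all genes. At an unadjusted p under 0.05 it found Mx1 and Mx2 (2 of 35, 5.71%), both higher, against 3.69% of all genes. DESeq2 and limma voom with quality weights also called 0 of them, with 3 (3.61% of all genes) and 8 (4.53% of all genes) at an unadjusted p under 0.05. Without replicate 2, the library high in heart muscle genes, 28 genes were still higher and the median was 0.35, with 4 at an unadjusted p under 0.05. Without control replicate 3, 23 were higher and the median was 0.14.

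At 20 mg/mL and day 6 the balance was the other way. Of the 35 genes 12 were higher and 23 lower, with a median log2 fold change of -0.13 against 0.00 for all genes, of which 49.6% were higher. No gene of the set had all exposed libraries above all controls (4.08% of all genes did), and 3 lay wholly below, Ifih1, Trim25 and Ifit1 (8.57%, against 4.67% of all genes). The edgeR test called 0 of 35 and 0% of all genes. At an unadjusted p under 0.05 it found 3 (8.57%, against 4.06% of all genes), with Cxcl9 and Ifi47 higher and Ifi44 lower. DESeq2 and limma voom called 0, with 4 (3.92% of all genes) and 3 (11.3% of all genes) at an unadjusted p under 0.05. The lower balance at day 6 rested on 1 control library: without control replicate 1, 20 of 35 genes were higher at 20 mg/mL and the median log2 fold change was 0.07.

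The difference between the 20 mg/mL effects of the 2 days was tested directly. It was positive for 27 of 35 genes and negative for 8, with a median of 0.38 on the log2 scale against 0.02 for all genes. The edgeR test called 0 of the 35 and 0% of all genes. Ifi44, Mx2 and Mx1 had a positive difference at an unadjusted p under 0.05 and Cxcl9 a negative one (4 of 35, against 3.81% of all genes). Without control replicate 1 of day 6 the difference was positive for 22 genes with a median of 0.14, and without replicate 1 of 20 mg/mL at day 12 for 24 with a median of 0.23. An unequal effect of the 2 days was therefore not shown for any single gene.

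**Figure D2:**
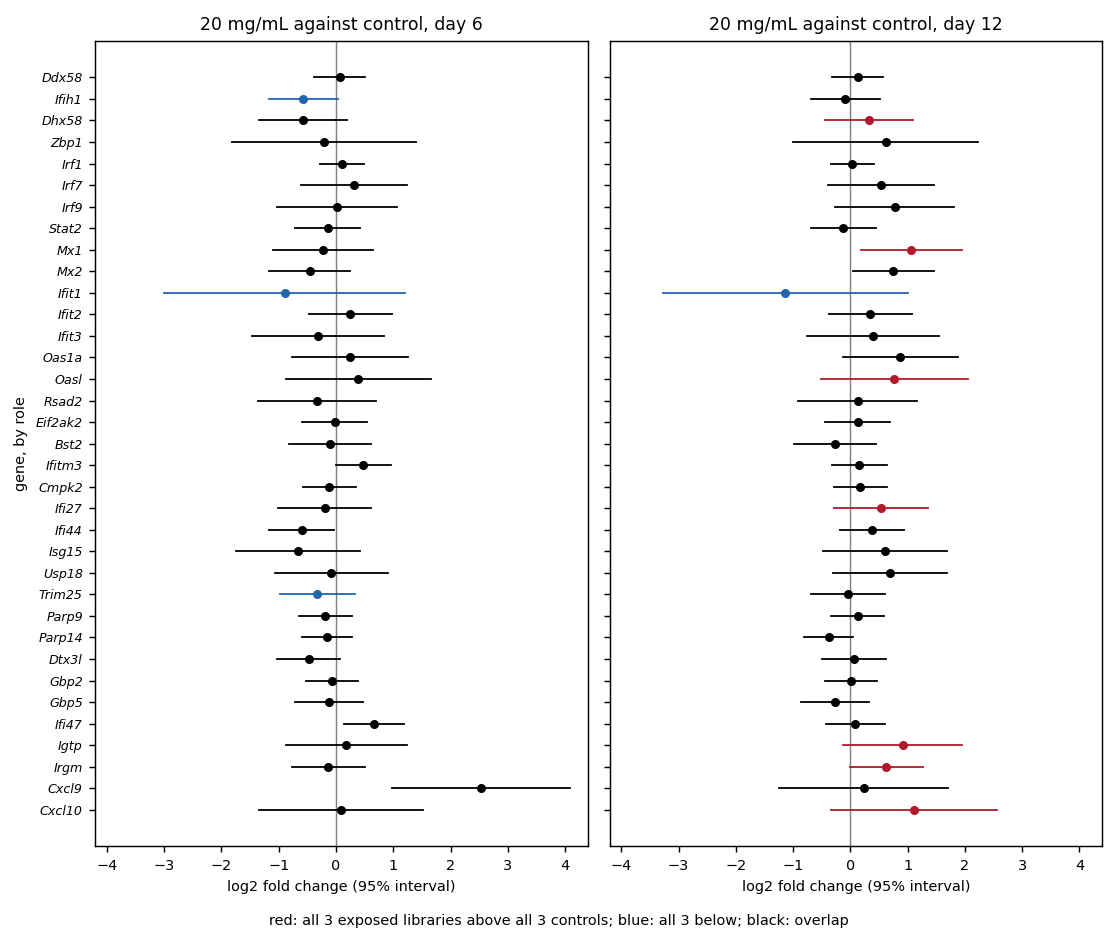
Log2 fold change of 20 mg/mL against control with its 95% interval (edgeR) for 35 interferon-stimulated genes, ordered by role, at day 6 and at day 12. At day 12, 28 points lie right of 0 and 7 of the genes have no overlap between exposed libraries and controls (red); at day 6, 23 points lie left of 0 and most intervals on both days cross 0.

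The lower doses at day 12 were closer to an even split. At 10 mg/mL 19 genes were higher and 16 lower (median 0.07), and at 5 mg/mL 17 were higher and 18 lower (median -0.02). At day 6 the middle doses leaned upward, with 22 higher and 13 lower at 10 mg/mL (median 0.17) and 21 higher and 14 lower at 5 mg/mL (median 0.15). Those medians were -0.35 and -0.14 without the 8 low-detection libraries, which left 1 library at each of these doses, and the median at 5 mg/mL was -0.17 without its replicate 1. Each of these 4 comparisons called 0 genes of the set in edgeR, DESeq2 and limma voom, and edgeR called 0% of all genes. At 10 mg/mL and day 6, Oas1a (log2 fold change 1.09, SE 0.48) and Ifih1 (-0.62, SE 0.29) had an unadjusted p under 0.05, as did 2.7% of all genes, and limma voom put 10 of the set there, against 25.9% of all genes in that tool. At 5 mg/mL and day 12 the only such gene was Ifitm3 (log2 fold change 0.51, SE 0.23), against 1.25% of all genes, with 1 by DESeq2 (1.34% of all genes) and 6 by limma voom (5.93%). There were 0 at 10 mg/mL and day 12 (2.09% of all genes), with 0 by DESeq2 (2.05% of all genes) and 3 by limma voom (5.25%). At 5 mg/mL and day 6 there were also 0 (4.71% of all genes), with 1 by DESeq2 (4.61% of all genes) and 1 by limma voom (19.7%). All 3 doses of a day share the same 3 control libraries.

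By dose, the highest group mean of the day was at 20 mg/mL for 23 of 35 genes at day 12 (29.7% of all genes) and for 5 at day 6 (27.2%). At day 6 it was at 10 mg/mL for 15 genes, at the control for 9 (24.8% of all genes) and at 5 mg/mL for 6. At day 12 the group means of Mx1, Ifi44, Igtp and Irgm followed the order of dose (4 of 35, against 5.73% of all genes), and those of Parp14 the reverse order. A slope linear in dose was positive for 28 of 35 genes at day 12 (median 0.26 over the range from 0 to 20 mg/mL) and for 10 of 35 at day 6 (median -0.12). It was positive for 51.6% and 49.6% of all genes on those days. Its largest weights fall on 20 mg/mL and the controls, so it is not separate evidence from that comparison. The edgeR test of the slope called 0 of the set on either day, with 0% of all genes called at day 12 and 0.00876%, the single gene Cebpd, at day 6. Mx1, Irgm and Oas1a had an unadjusted p under 0.05 for the slope at day 12 (4.36% of all genes), and Cxcl9, Ifi44, Ifi47 and Ifitm3 at day 6 (4.86%). DESeq2 and limma voom called 0 for both slopes, with 4 (4.17% of all genes) and 8 (4.59%) at an unadjusted p under 0.05 at day 12 and 4 by each at day 6 (4.51% and 7.75%).

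Between day 12 and day 6 controls, 19 genes were higher and 16 lower at day 12, with a median log2 difference of 0.00. The edgeR test called 0 of 35 and 0% of all genes, and 0 had an unadjusted p under 0.05, against 2.46% of all genes. DESeq2 and limma voom called 0, with 1 (2.47% of all genes) and 4 (13.8%) at an unadjusted p under 0.05.

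**Figure D3:**
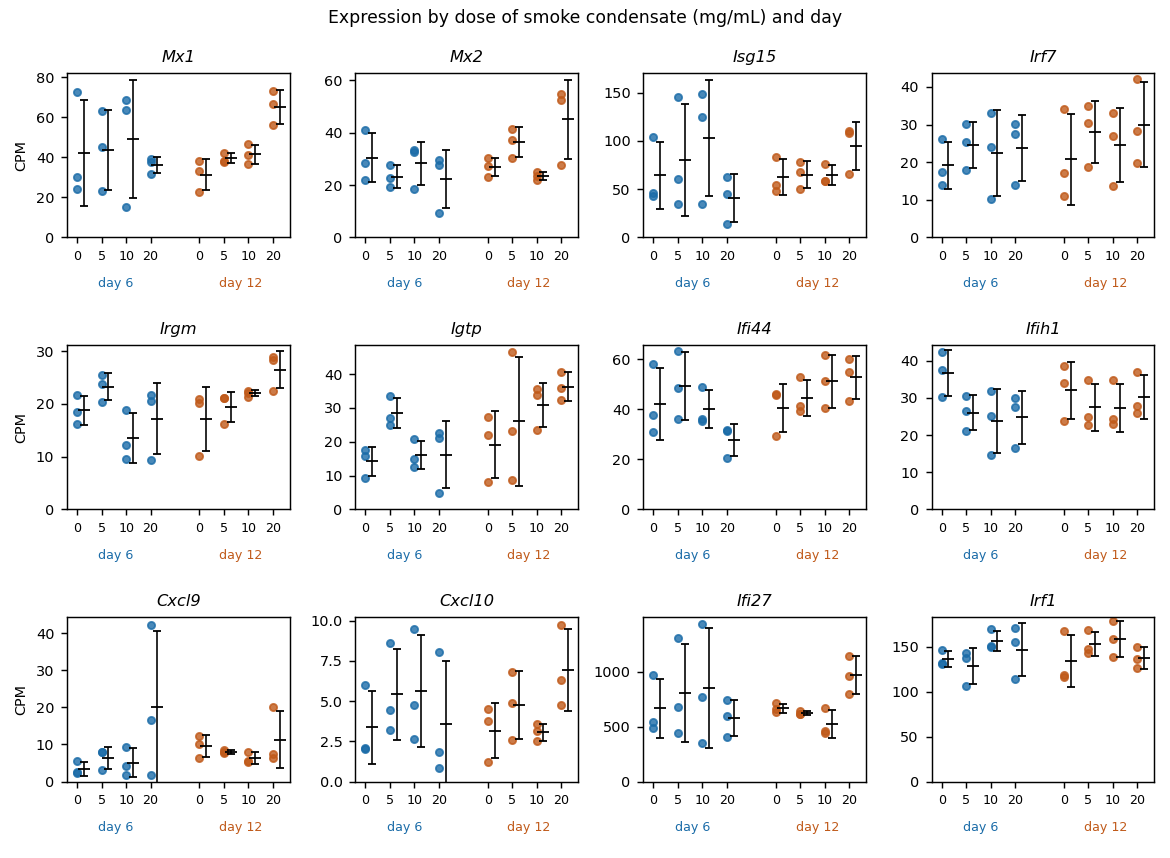
CPM of 12 interferon-stimulated genes in each library by dose of WCSC (0, 5, 10 and 20 mg/mL) at day 6 (blue) and day 12 (orange), with the mean and SD of 3 libraries beside the points (bars cut at 0). Mx1, Irgm, Igtp, Cxcl10 and Ifi27 at 20 mg/mL and day 12 lie above all controls of that day, while day 6 libraries of 1 group often spread more than the groups differ.

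Of the 4 sensors 3 had a higher mean at 20 mg/mL on day 12 (median log2 fold change 0.23) and 1 on day 6 (median -0.39). Ifih1 encodes MDA5, which binds long double-stranded RNA. Its level at day 6 was 42.2, 30.2 and 37.6 CPM in controls, 30.5, 26.5 and 21.00 CPM at 5 mg/mL, 31.8, 24.99 and 14.7 CPM at 10 mg/mL and 30.1, 27.5 and 16.6 CPM at 20 mg/mL. The 3 exposed libraries at 20 mg/mL lay below all 3 controls, narrowly, since the lowest control and the highest exposed library were nearly equal. There the log2 fold change was -0.57 (SE 0.29, 95% interval -1.17 to 0.03), unadjusted p = 0.0612, edgeR adjusted p = 0.9999. At day 12 the level was 23.6, 38.5 and 33.9 CPM in controls, 24.9, 22.8 and 34.7 CPM at 5 mg/mL, 24.2, 34.7 and 22.9 CPM at 10 mg/mL and 36.8, 25.9 and 27.8 CPM at 20 mg/mL, and 20 mg/mL overlapped its controls. Ddx58 encodes RIG-I, the sensor of short RNA with a triphosphate end, and had the most reads among the sensors. At day 6 it stood at 66.2, 61.1 and 77.97 CPM in controls, 68.8, 56.1 and 58.4 CPM at 5 mg/mL, 81.7, 66.9 and 63.3 CPM at 10 mg/mL and 67.8, 86.4 and 60.2 CPM at 20 mg/mL. Its day 12 level was 87.9, 73.1 and 65.1 CPM in controls, 76.3, 91.6 and 88.7 CPM at 5 mg/mL, 60.3, 79.1 and 74.1 CPM at 10 mg/mL and 108, 54.1 and 85.1 CPM at 20 mg/mL. At both days 20 mg/mL overlapped its controls, with the highest and the lowest library of the whole series both at 20 mg/mL and day 12. Dhx58, which encodes the related regulator LGP2, ranged over 3.83 to 12.4 CPM and Zbp1, a sensor of Z-form nucleic acid, over 0.383 to 4.98 CPM. At 20 mg/mL and day 12 Dhx58 read 8.51, 8.82 and 9.88 CPM against 6.67, 6.50 and 8.47 CPM in controls, so the lowest exposed library and the highest control were nearly equal.

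Of the 4 transcription factors 3 were higher at 20 mg/mL on either day, with medians of 0.29 at day 12 and 0.06 at day 6. Irf7 encodes the factor that amplifies type I interferon production and is itself strongly interferon-induced. At day 6 its level was 26.02, 13.96 and 17.5 CPM in controls, 30.03, 25.5 and 17.97 CPM at 5 mg/mL, 33.02, 24.1 and 10.2 CPM at 10 mg/mL and 13.8, 27.4 and 30.2 CPM at 20 mg/mL. At day 12 it was 34.2, 17.2 and 10.96 CPM in controls, 34.8, 18.8 and 30.4 CPM at 5 mg/mL, 26.9, 13.7 and 33.1 CPM at 10 mg/mL and 41.96, 19.8 and 28.2 CPM at 20 mg/mL. Every dose overlapped its controls on both days, and the highest library was replicate 1 of 20 mg/mL at day 12. The log2 fold change at 20 mg/mL was 0.54 (SE 0.45, 95% interval -0.39 to 1.47) at day 12 and 0.32 (SE 0.45, 95% interval -0.60 to 1.25) at day 6, with edgeR adjusted p of 0.998 and 0.9999. Irf1, a factor of the interferon gamma arm that is also induced by inflammatory cytokines, was the steadiest gene of the set, with a 1.69-fold range over the 24 libraries. Irf1 at day 6 read 130.4, 146 and 132 CPM in controls, 143, 106 and 137 CPM at 5 mg/mL, 149.8, 169 and 151 CPM at 10 mg/mL and 114, 171 and 156 CPM at 20 mg/mL. Irf1 at day 12 read 168, 116 and 119 CPM in controls, 143, 169 and 148 CPM at 5 mg/mL, 139, 158 and 179 CPM at 10 mg/mL and 149.6, 137 and 126 CPM at 20 mg/mL. Its log2 fold changes of 0.11 and 0.04 were within the spread, with 95% intervals of -0.27 to 0.48 and -0.34 to 0.41. Irf9 and Stat2, of the type I complex, ranged over 1.81 to 12.3 CPM and 16.9 to 42.2 CPM.

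Of the 14 tested antiviral effectors 12 were higher at 20 mg/mL on day 12 (median 0.37) and 4 on day 6 (median -0.16). Mx1 and Mx2 encode dynamin-like GTPases that trap viral components and are among the classic type I interferon targets. Mx1 at day 12 stood at 38.00, 33.04 and 22.9 CPM in controls, 37.9, 38.3 and 42.3 CPM at 5 mg/mL, 41.1, 36.9 and 46.5 CPM at 10 mg/mL and 66.7, 56.00 and 72.97 CPM at 20 mg/mL. All 3 libraries at 20 mg/mL were above every other library of that day, and the libraries at 5 and 10 mg/mL lay near or just above the highest control. For Mx1 the log2 fold change at 20 mg/mL was 1.06 (SE 0.43, 95% interval 0.18 to 1.94), with unadjusted p = 0.0203, edgeR adjusted p = 0.998. At day 6 Mx1 was at 72.5, 30.1 and 24.1 CPM in controls, 62.9, 45.04 and 23.3 CPM at 5 mg/mL, 68.8, 63.8 and 15.4 CPM at 10 mg/mL and 37.6, 39.2 and 31.6 CPM at 20 mg/mL. The day 6 groups overlapped widely, the control, 5 and 10 mg/mL groups each holding libraries above and below all 3 at 20 mg/mL, and the log2 fold change at 20 mg/mL was -0.23 (SE 0.42). Its sign depended on control replicate 1, without which it was 0.42. Mx2 at day 12 read 30.3, 27.1 and 23.2 CPM in controls, 37.1, 30.4 and 41.5 CPM at 5 mg/mL, 25.1, 22.02 and 23.4 CPM at 10 mg/mL and 54.8, 27.6 and 52.6 CPM at 20 mg/mL. The first and the third library at 20 mg/mL were the highest of that day, and the second lay within the control range. Its log2 fold change at 20 mg/mL was 0.75 (SE 0.34, 95% interval 0.04 to 1.46) at day 12, with unadjusted p = 0.0393, edgeR adjusted p = 0.998. At day 6 the Mx2 values were 40.8, 22.1 and 28.6 CPM in controls, 27.8, 22.7 and 19.2 CPM at 5 mg/mL, 32.7, 33.4 and 18.7 CPM at 10 mg/mL and 27.8, 29.7 and 9.44 CPM at 20 mg/mL. Here the log2 fold change was -0.45 (SE 0.34), and replicate 3 of 20 mg/mL was the lowest of the 24 libraries. The effect at day 12 minus that at day 6 was 1.29 (SE 0.60, 95% interval 0.05 to 2.52) for Mx1 and 1.20 (SE 0.48, 95% interval 0.20 to 2.20) for Mx2, with edgeR adjusted p = 0.9999 for both. For Mx1 that difference was 0.65 without control replicate 1 of day 6 and 0.78 without the 8 low-detection libraries. Mx1 and Mx2 are similar in sequence, and how the counting shared reads between them is not given in the sources used here.

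Ifi44, an interferon-induced cytoplasmic protein, had a lower mean than controls at 20 mg/mL on day 6 and a higher one on day 12. At day 6 it was at 58.04, 30.8 and 37.6 CPM in controls, 63.4, 48.4 and 36.3 CPM at 5 mg/mL, 48.8, 35.4 and 36.2 CPM at 10 mg/mL and 31.9, 20.4 and 31.3 CPM at 20 mg/mL. The 20 mg/mL libraries and control replicate 2 were the lowest 4 of the day, and the log2 fold change was -0.60 (SE 0.27, 95% interval -1.16 to -0.04), with unadjusted p = 0.0372, edgeR adjusted p = 0.9999. At day 12 it was at 29.3, 45.9 and 46.1 CPM in controls, 39.4, 41.1 and 52.8 CPM at 5 mg/mL, 40.6, 61.6 and 51.2 CPM at 10 mg/mL and 59.97, 43.3 and 55.04 CPM at 20 mg/mL. There the log2 fold change was 0.38 (SE 0.27) and the groups overlapped. Its difference between days was 0.98 (SE 0.38, 95% interval 0.19 to 1.78), with unadjusted p = 0.0172, edgeR adjusted p = 0.9999. Leaving out the 8 low-detection libraries brought the day 6 value to -0.11 and the difference between days to 0.28.

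Ifitm3 encodes a membrane protein that hinders the fusion of entering viruses. At day 6 it read 399, 380.0 and 519 CPM in controls, 533, 432 and 473 CPM at 5 mg/mL, 567, 374 and 521 CPM at 10 mg/mL and 529, 806 and 471 CPM at 20 mg/mL, with replicate 2 of 20 mg/mL the highest of all libraries. Its log2 fold change there was 0.48 (SE 0.23, 95% interval -0.000841 to 0.96), with unadjusted p = 0.0504, edgeR adjusted p = 0.9999. At day 12 it was at 578, 364 and 329 CPM in controls, 594, 652 and 566 CPM at 5 mg/mL, 549, 467 and 441 CPM at 10 mg/mL and 516, 441 and 462 CPM at 20 mg/mL, and control replicate 1 lay above at least 1 library of every dose. Ifi27, a mitochondrial and nuclear-envelope protein that is a sensitive marker of interferon exposure in blood and airway, had the most reads of the set. At day 12 it stood at 664, 713 and 631 CPM in controls, 643, 619 and 616 CPM at 5 mg/mL, 439, 673 and 459 CPM at 10 mg/mL and 799, 966 and 1149 CPM at 20 mg/mL. The 20 mg/mL libraries were above all others of the day, with a log2 fold change of 0.54 (SE 0.40, 95% interval -0.28 to 1.36). At day 6 Ifi27 was at 976, 539.7 and 485 CPM in controls, 1307, 681 and 439 CPM at 5 mg/mL, 1442, 769.6 and 353 CPM at 10 mg/mL and 739, 598 and 408 CPM at 20 mg/mL. The spread within each day 6 group was larger than the spread of the day 12 controls, and the log2 fold change at 20 mg/mL was -0.20 (SE 0.39).

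Oas1a, whose enzyme makes the 2-5A that activates RNase L, was at day 6 levels of 6.12, 3.93 and 8.73 CPM in controls, 11.4, 10.1 and 6.94 CPM at 5 mg/mL, 22.4, 13.2 and 4.35 CPM at 10 mg/mL and 8.12, 8.81 and 5.36 CPM at 20 mg/mL. Replicate 1 of 10 mg/mL was the highest of all libraries and replicate 3 of the same group was the lowest but for 1 control. At day 12 Oas1a was at 10.7, 5.06 and 5.83 CPM in controls and 17.4, 5.56 and 16.4 CPM at 20 mg/mL, and its slope in dose was 0.95 (SE 0.46, 95% interval 0.00142 to 1.90), with unadjusted p = 0.0497, edgeR adjusted p = 0.991. Rsad2, which encodes viperin, and Oasl, a relative of Oas1a without the enzyme activity, ranged over 6.87 to 51.8 CPM and 1.68 to 26.3 CPM. Both were lowest in replicate 3 of 10 mg/mL at day 6. Ifit3 (7.43 to 44.03 CPM) and Ifit2 (10.5 to 29.3 CPM), which encode RNA-binding blockers of translation, overlapped between groups in both 20 mg/mL comparisons. Eif2ak2, the kinase PKR that halts translation, ranged over 58.2 to 138 CPM, Bst2, the tether of budding virus, over 22.97 to 74.4 CPM, and Cmpk2, a nucleotide kinase next to Rsad2, over 22.3 to 40.6 CPM. Ifit1 had 302 reads in all and none in 2 libraries. At 20 mg/mL and day 12 Ifit1 read 1.19, 1.15 and 1.71 CPM against 1.82, 2.71 and 4.44 CPM in controls, and its interval of -3.27 to 1.00 on the log2 scale included 0. The Ifit genes are close relatives, and their reads may be shared.

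Of the 6 tested genes of the ISG15, ubiquitin and ADP-ribosyl systems 4 were higher at 20 mg/mL on day 12 (median 0.10) and 0 on day 6 (median -0.26). Isg15 encodes the ubiquitin-like protein that is attached to targets during the antiviral response. Isg15 at day 6 was at 104, 46.1 and 42.6 CPM in controls, 146, 60.4 and 34.9 CPM at 5 mg/mL, 149, 125 and 34.8 CPM at 10 mg/mL and 44.7, 63.00 and 14.04 CPM at 20 mg/mL. Control replicate 1, replicate 1 of 5 mg/mL and replicates 1 and 2 of 10 mg/mL lay well above the other libraries of the day, and replicate 3 of 20 mg/mL was the lowest of the series, a 10.6-fold range. Isg15 at day 12 was at 83.5, 54.7 and 48.4 CPM in controls, 67.6, 50.04 and 77.7 CPM at 5 mg/mL, 58.7, 58.9 and 76.4 CPM at 10 mg/mL and 110.4, 65.8 and 108 CPM at 20 mg/mL. The first and the third library at 20 mg/mL were the highest of that day, and the second lay inside the control range, the same arrangement as in Mx2. The log2 fold change at 20 mg/mL was 0.61 (SE 0.52, 95% interval -0.47 to 1.69) at day 12 and -0.67 (SE 0.52, 95% interval -1.75 to 0.42) at day 6, with edgeR adjusted p of 0.998 and 0.9999. Usp18, the protease that removes ISG15 and damps the receptor, ranged over 8.75 to 38.5 CPM and read 19.00, 15.5 and 12.4 CPM in controls and 29.7, 14.96 and 30.9 CPM at 20 mg/mL at day 12. Again the second exposed library was inside the control range. Trim25, a ubiquitin ligase that activates RIG-I, had the most reads of its group, with 155, 147 and 177 CPM in controls, 143, 67.1 and 141 CPM at 5 mg/mL, 102, 186 and 131 CPM at 10 mg/mL and 126, 136 and 120.3 CPM at 20 mg/mL at day 6. Trim25 at day 12 read 281, 102 and 154 CPM in controls, 131, 187 and 159 CPM at 5 mg/mL, 199, 204 and 174 CPM at 10 mg/mL and 202, 202 and 115 CPM at 20 mg/mL. All 20 mg/mL libraries were below all controls at day 6, by a margin smaller than the spread of the controls, and the groups overlapped at day 12. Parp14, an ADP-ribosyltransferase, had a lower mean with WCSC at day 12, at 80.2, 60.3 and 49.8 CPM in controls, 56.1, 53.1 and 63.9 CPM at 5 mg/mL, 57.4, 45.2 and 54.1 CPM at 10 mg/mL and 58.98, 40.3 and 46.9 CPM at 20 mg/mL. Its log2 fold change at 20 mg/mL was -0.38 (SE 0.21, 95% interval -0.81 to 0.05), with unadjusted p = 0.0816, edgeR adjusted p = 0.998, and the highest value was control replicate 1. At day 6 Parp14 read 49.6, 57.9 and 49.8 CPM in controls, 39.8, 45.95 and 49.8 CPM at 5 mg/mL, 48.2, 42.5 and 39.8 CPM at 10 mg/mL and 52.4, 54.4 and 34.2 CPM at 20 mg/mL, with replicate 3 of 20 mg/mL the lowest. Parp9 (65.5 to 139 CPM) and its partner ligase Dtx3l (24.5 to 58.9 CPM) lie next to each other on opposite strands in RefSeq, and without the strand setting of the counting their reads may be shared.

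Of the 5 GTPases 4 were higher at 20 mg/mL on day 12 (median 0.09) and 2 on day 6 (median -0.08). Igtp and Irgm encode immunity-related GTPases that act on the vacuoles of intracellular pathogens. Igtp at day 12 was at 8.09, 22.03 and 27.3 CPM in controls, 23.1, 8.74 and 46.4 CPM at 5 mg/mL, 35.6, 23.5 and 33.8 CPM at 10 mg/mL and 32.3, 40.7 and 35.9 CPM at 20 mg/mL. The 3 libraries at 20 mg/mL lay above all controls and close together, while 1 library each of the control and 5 mg/mL groups was far lower. Its log2 fold change was 0.91 (SE 0.50, 95% interval -0.13 to 1.95), with unadjusted p = 0.0824, edgeR adjusted p = 0.998. At day 6 it was at 9.31, 17.5 and 15.8 CPM in controls, 33.6, 27.2 and 24.9 CPM at 5 mg/mL, 12.7, 15.04 and 20.8 CPM at 10 mg/mL and 22.7, 4.83 and 21.1 CPM at 20 mg/mL. There the 5 mg/mL group was the one above all controls (log2 fold change 1.01, SE 0.50, unadjusted p = 0.057, edgeR adjusted p = 0.896), and replicate 2 of 20 mg/mL was the lowest of the series. Irgm at day 12 was at 10.1, 20.2 and 20.96 CPM in controls, 21.2, 21.1 and 16.2 CPM at 5 mg/mL, 22.1, 22.5 and 21.4 CPM at 10 mg/mL and 28.3, 22.4 and 28.8 CPM at 20 mg/mL. All libraries at 10 and 20 mg/mL were above all controls, and the log2 fold change at 20 mg/mL was 0.63 (SE 0.31, 95% interval -0.01 to 1.26), with unadjusted p = 0.0524, edgeR adjusted p = 0.998. At day 6 Irgm was at 18.5, 16.3 and 21.7 CPM in controls, 20.4, 25.5 and 23.8 CPM at 5 mg/mL, 9.57, 12.3 and 18.8 CPM at 10 mg/mL and 21.7, 9.41 and 20.5 CPM at 20 mg/mL. Replicates 1 and 2 of 10 mg/mL and replicate 2 of 20 mg/mL were low there, all of them low-detection libraries. The remaining low-detection libraries of that day were not low. Replicates 1 and 2 of 5 mg/mL (20.4 and 25.5 CPM) and control replicate 1 (18.5 CPM) lay within or above the control range. The difference of the 20 mg/mL effect between days was 0.76 (SE 0.43, 95% interval -0.14 to 1.66), with unadjusted p = 0.0926, edgeR adjusted p = 0.9999. Without the 8 low-detection libraries it was 0.14, and without replicate 2 of 20 mg/mL at day 6 it was 0.46. Ifi47, another GTPase of this family, was at 36.7, 30.4 and 20.7 CPM in controls, 37.1, 39.6 and 30.1 CPM at 5 mg/mL, 42.8, 34.6 and 31.3 CPM at 10 mg/mL and 51.98, 35.7 and 51.6 CPM at 20 mg/mL on day 6, with a log2 fold change of 0.66 (SE 0.25, 95% interval 0.14 to 1.19), unadjusted p = 0.0152, edgeR adjusted p = 0.9999. The lowest exposed library lay just under the highest control. Ifi47 at day 12 was at 32.3, 59.2 and 29.4 CPM in controls, 42.99, 37.8 and 46.1 CPM at 5 mg/mL, 36.02, 35.4 and 36.4 CPM at 10 mg/mL and 47.1, 35.5 and 45.8 CPM at 20 mg/mL, with the top value in a control. Gbp2, a guanylate-binding protein that coats pathogen membranes, had the most reads of this group and read 181, 112 and 107 CPM in controls, 125, 139.6 and 102 CPM at 5 mg/mL, 143, 161 and 102 CPM at 10 mg/mL and 148, 127 and 105 CPM at 20 mg/mL on day 6. On day 12 Gbp2 read 208, 133 and 145 CPM in controls, 143, 161 and 141 CPM at 5 mg/mL, 140.2, 147 and 150.3 CPM at 10 mg/mL and 164, 154 and 170.2 CPM at 20 mg/mL, and 20 mg/mL overlapped its controls on both days. Gbp5, a related guanylate-binding protein, ranged over 17.8 to 47.7 CPM and overlapped as well.

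Cxcl9 and Cxcl10 encode chemokines that draw T and NK cells through CXCR3, with Cxcl9 the more dependent on interferon gamma. Cxcl9 at day 6 was at 5.61, 2.17 and 2.53 CPM in controls, 8.05, 7.96 and 3.02 CPM at 5 mg/mL, 4.31, 9.32 and 1.68 CPM at 10 mg/mL and 16.4, 1.69 and 42.1 CPM at 20 mg/mL. The 20 mg/mL group held the highest library of the series, replicate 3, and the second highest of the day, replicate 1, but also replicate 2, below every control. The log2 fold change of 2.54 (SE 0.75, 95% interval 0.98 to 4.09) was the largest of the set, with unadjusted p = 0.00265, edgeR adjusted p = 0.871, and 0.281 as the adjusted p of DESeq2. Without replicate 3 it was 1.36. Leaving out the 8 low-detection libraries, which include replicate 2 and left 2 libraries at 20 mg/mL and 2 controls, it was 3.64 with an edgeR adjusted p of 0.0453, and the slope in dose at day 6 was 3.57 with 0.0428. Of 11950 genes tested there, 3 and 4 passed, and 8.9% and 9.61% had an unadjusted p under 0.05. Those were the only settings that called a gene of the set. At day 12 Cxcl9 was at 12.3, 10.1 and 6.25 CPM in controls, 7.65, 7.84 and 8.61 CPM at 5 mg/mL, 8.08, 5.34 and 5.59 CPM at 10 mg/mL and 7.32, 20.1 and 6.35 CPM at 20 mg/mL. The groups overlapped, and the effect at day 12 minus that at day 6 was -2.30 (SE 1.02, 95% interval -4.42 to -0.18), with unadjusted p = 0.0345, edgeR adjusted p = 0.9999. Without replicate 3 of 20 mg/mL at day 6 that difference was -1.13. Replicate 3 of 20 mg/mL at day 6 also had 5.74 CPM of Cxcl11, the third chemokine of this receptor, against at most 2.30 CPM in any other library, and the highest summed macrophage markers of all 24 libraries (675 CPM). Whether its macrophage content bore on these chemokines was not tested. Cxcl10 at day 12 was at 1.21, 4.51 and 3.75 CPM in controls, 4.85, 2.56 and 6.82 CPM at 5 mg/mL, 3.54, 2.50 and 3.13 CPM at 10 mg/mL and 9.70, 6.33 and 4.76 CPM at 20 mg/mL. All 20 mg/mL libraries were above all controls, with a log2 fold change of 1.11 (SE 0.70, 95% interval -0.33 to 2.56) and unadjusted p = 0.125, edgeR adjusted p = 0.998. At day 6 Cxcl10 was at 6.00, 2.03 and 2.11 CPM in controls, 4.42, 8.62 and 3.20 CPM at 5 mg/mL, 9.45, 4.72 and 2.67 CPM at 10 mg/mL and 1.83, 0.845 and 8.04 CPM at 20 mg/mL. The 20 mg/mL group held both the lowest library of the series and a library above every control, and the log2 fold change was 0.09 (SE 0.69).

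**Figure D4:**
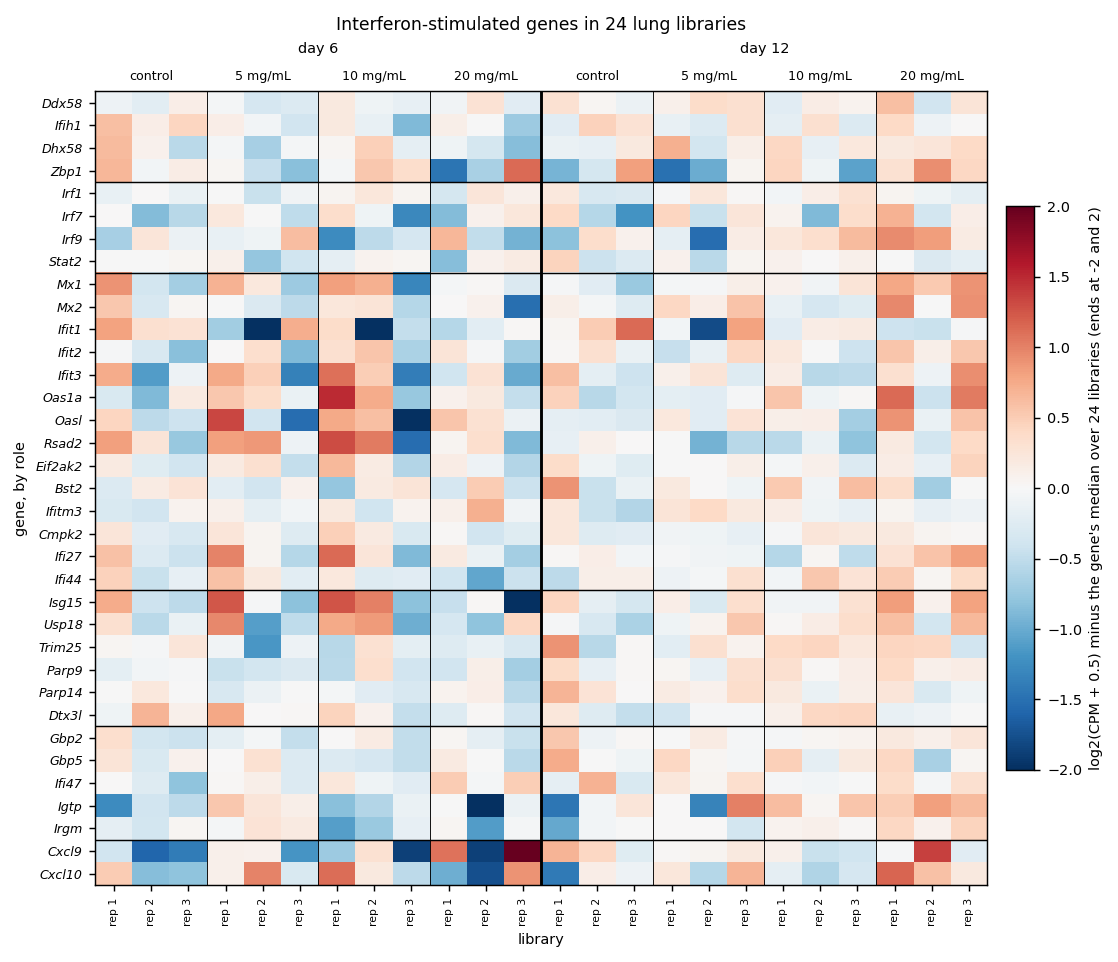
Log2(CPM + 0.5) of the 35 tested interferon-stimulated genes minus each gene's median over the 24 libraries, with genes by role in rows and libraries by day, dose and replicate in columns. Most cells of a column can share a colour, red in replicate 1 and blue in replicate 3 of 10 mg/mL at day 6, and red in replicates 1 and 3 of 20 mg/mL at day 12.

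Libraries of 1 group differed widely across the set. Counting in each library the genes above their own median over the 24 libraries, 24 of 35 stood above it in replicate 1 of 10 mg/mL at day 6 and 5 in replicate 3 of the same group, while 49.0% and 51.5% of all genes did. At 5 mg/mL and day 6 the 3 libraries had 23, 16 and 6, in controls of that day 21, 9 and 13, and at 20 mg/mL 17, 16 and 9. At day 12 the counts were 22, 12 and 12 in controls, 18, 15 and 25 at 5 mg/mL, 21, 18 and 22 at 10 mg/mL and 31, 16 and 26 at 20 mg/mL. The highest count of the series was thus in replicate 1 of 20 mg/mL at day 12, and the other 2 libraries of that group had 16, fewer than control replicate 1, and 26, more than any control. Among the antiviral effectors 13 of 14 were above their median in replicate 1 of 10 mg/mL at day 6 and 2 of 14 in its replicate 3, and 13, 5 and 11 of 14 in the 3 libraries at 20 mg/mL and day 12. The single library with the highest value was replicate 1 of 10 mg/mL at day 6 for 7 genes, replicate 1 of 20 mg/mL at day 12 for 7 and control replicate 1 at day 12 for 6, while those libraries were the highest for 10.6%, 2.16% and 8.53% of all genes. The lowest value fell in replicate 3 of 10 mg/mL at day 6 for 11 genes (2.27% of all genes).

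**Figure D5:**
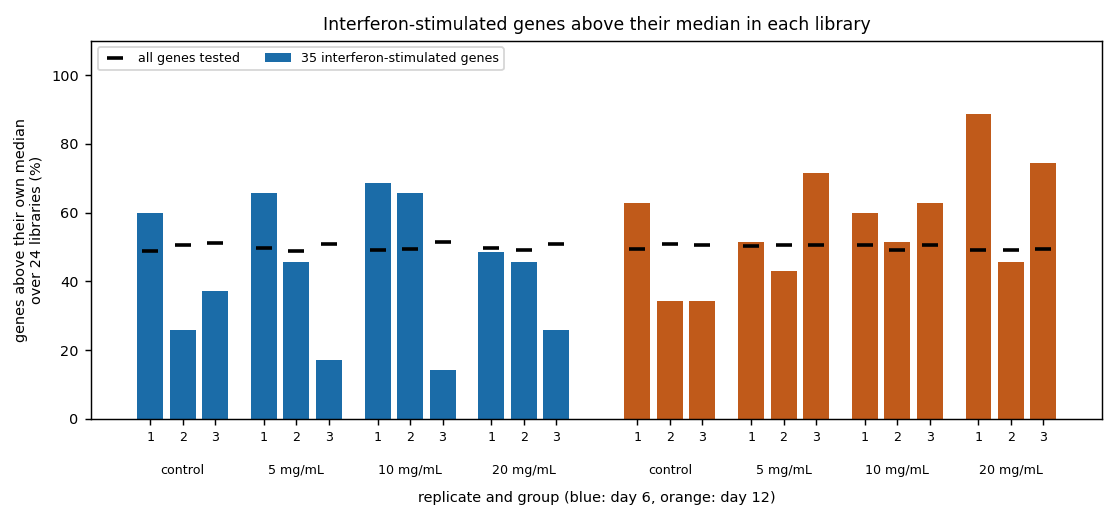
Share of the 35 interferon-stimulated genes above their own median over 24 libraries in each library (bars, blue for day 6 and orange for day 12), with the same share of all genes tested as a black mark. The black marks stay near 50% while the bars run from 14.3% in replicate 3 of 10 mg/mL at day 6 to 88.6% in replicate 1 of 20 mg/mL at day 12.

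Some measures of library content moved in part with these counts at day 6. The 6 low-detection libraries of day 6 had 16 to 24 genes above their median, and the other 6 of that day had 5 to 17. The summed level of 10 T and NK cell markers was highest in the series in replicate 1 of 5 mg/mL (289 CPM), then in replicate 1 of 10 mg/mL (261 CPM), replicate 2 of 5 mg/mL (253 CPM), control replicate 1 (249 CPM) and replicate 2 of 10 mg/mL (242 CPM), all at day 6. It was lowest in replicate 3 of 10 mg/mL at day 6 (97.6 CPM), where 9 macrophage markers were also lowest (325 CPM). The match was not complete, since replicate 2 of 5 mg/mL at day 6 had 16 of 35 genes above their median. The libraries named for the highest T and NK sums had 566 to 936 CPM of 5 neutrophil markers. The others of day 6 had 171 to 661 CPM. In 5 dendritic cell markers, with Tcf4 the most read, the named libraries had 100 to 147 CPM. The others of day 6 had 180 to 228 CPM there. The pattern was thus not particular to T and NK markers. The macrophage sum was highest in replicate 3 of 20 mg/mL at day 6 (675 CPM), a library with 9 of 35 genes above their median. All 10 T and NK markers had reads in all 24 libraries, and of the macrophage markers Marco had 0 reads in all 24. At day 12 the T and NK sums ran from 151 to 215 CPM in controls and from 147 to 241 CPM at 20 mg/mL, and the macrophage sums from 445 to 489 CPM and from 458 to 613 CPM, both overlapping. The macrophage sums at day 6 were 380 to 533 CPM in controls and 571 to 675 CPM at 20 mg/mL, where all 8 tested macrophage genes had a higher mean and 0 passed the edgeR test. The summed level of 5 neutrophil markers at day 12 was 515 to 589 CPM in controls and 293 to 461 CPM at 20 mg/mL, without overlap. All 3 tested neutrophil genes had a lower mean there, 0 passed the edgeR test, and the sums overlapped at day 6 (171 to 742 CPM in controls and 304 to 661 CPM at 20 mg/mL). Of the 5, Cxcr2 had 0 reads in 18 and Mmp8 in 19 of the 24 libraries. The sum of 3 B cell markers at day 6 was 26.7 to 36.6 CPM in controls and 20.9 to 23.8 CPM at 20 mg/mL, also without overlap. At day 12 the B cell sums overlapped, at 21.4 to 60.4 CPM in controls and 18.8 to 64.1 CPM at 20 mg/mL. For single genes, 4.08% of all lay wholly above and 4.67% wholly below the controls at 20 mg/mL on day 6. The share wholly below on day 12 was 4.11%. In such bulk tissue fewer cells of a type and less RNA per cell cannot be told apart, and the part of cell content and of RNA quality in the library differences was not tested. Without the 8 low-detection libraries the day 12 median log2 fold change of the set at 20 mg/mL was 0.33 with 30 genes higher, and the day 6 median was -0.03 with 17 higher.

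Upstream of the set, 5 of 8 interferon genes looked up were in the count files, and Ifne, Il28b and Ifnl3 were not found there. The receptor gene Ifnar2 was not found either. Ifna1, Ifna4, Ifnb1 and Ifng had 0 reads in all 24 libraries, and Ifnk had 1 read in all. On total counts without TMM scaling, 0 reads allow up to 0.270 CPM in the deepest library and 0.626 CPM in the shallowest, for counting error only. Of 7 tested receptor and kinase genes, 2 had a higher and 5 a lower mean at 20 mg/mL and day 12, and 5 a higher and 2 a lower mean at day 6, with 0 called. The subunits Ifnar1 of the type I receptor and Ifngr2 of the interferon gamma receptor had the smallest p at day 12, with log2 fold changes of -0.48 (SE 0.20) and -0.77 (SE 0.33) and edgeR adjusted p = 0.998. Of 6 inhibitors 5 were higher at day 12 and 3 at day 6, with 0 called. A second list of 35 tested interferon-induced genes outside the set, such as the proteasome and peptide-loading genes of antigen presentation, had 28 higher and 7 lower at 20 mg/mL and day 12 (median log2 fold change 0.31), and 18 higher and 17 lower at day 6 (median 0.07). None of them passed the edgeR test on either day. Lgals3bp, a secreted glycoprotein, had the smallest p on both days, with log2 fold changes of 0.61 (SE 0.21) at day 12 and 0.45 (SE 0.21) at day 6. Nmi, an interferon-induced protein, was next at day 12 at -1.04 (SE 0.54). The genes of both lists were read from the same 6 libraries, so their balance is not independent.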

How the data were processed

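RNA from 24 rat lung samples was made into Lexogen QuantSeq libraries, per the labels' protocols. The authors deposited raw counts per gene symbol, 1 file per sample. Bowtie2, bedtools and the build rn6 are named in the submitters' processing notes. For versions, annotation, read filters and strand setting nothing is given in the sources used here. Of repeated symbols the line with the most reads was kept, which left out 167 lines with 0.772% of the counts. Counts were scaled by TMM, filtered by filterByExpr and fitted in 1 model of 8 group means with the quasi-likelihood test of edgeR 4.0.16 (R 4.3.3, 16 residual degrees of freedom, two-sided), with Benjamini-Hochberg adjustment over 11421 genes and a threshold of 0.05. Samples were grouped by the dose and day in their titles. CPM are TMM-scaled, and SE and 95% intervals come from the fit. Differences of 3 against 3 libraries cannot go below p = 0.1 in an exact permutation test, so none is printed for single genes. No 2 libraries had identical counts. Alternatives were RLE and upper-quartile scaling, no filter, DESeq2 1.42.0, limma 3.58.1 voom with quality weights, fits restricted to the groups under comparison, a replicate block, detected genes at equal depth (4758014 reads, vegan 2.7.1) as a covariate, leaving out the 8 low-detection libraries, and leaving out each library in turn. DESeq2, the fit with no filter and most fits with libraries left out took in Cxcl11. Their counts at a threshold of p are out of 36 genes of the set.

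Values in each library were given for the 5 genes of the set with the smallest p at 20 mg/mL on each day, the gene with the most reads in each role group, and Mx1, Mx2, Isg15, Irf7, Irf1 and Cxcl10. Oas1a, Dhx58, Usp18, Ifit1 and other genes were named after their values were seen. The genes of the set, the other lists and the alternatives were chosen with earlier results of these data known.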

Additional observations from a re-analysis of the deposited data

How the results depend on the processing

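The count of called genes stayed at 0 under every alternative run in all 10 comparisons, except that leaving out the 8 low-detection libraries called 1, Cxcl9, at 20 mg/mL and day 6 and 1, again Cxcl9, for the slope in dose at day 6, where 3 and 4 of 11950 genes were called and 8.9% and 9.61% had an unadjusted p under 0.05. That removal left 1 library each of 5 and 10 mg/mL and 2 each of control and 20 mg/mL at day 6. The counts of 0 are for the set only, and some alternatives called genes outside it. The number of genes with a higher mean at 20 mg/mL and day 6 ran from 10 to 20 with 1 library left out, with 20 without control replicate 1, and the number at day 12 from 23 to 31. The difference between days was positive for 22 to 30 genes with a median of 0.14 to 0.55 when 1 library was left out. The median log2 fold change at 20 mg/mL ran from -0.20 to 0.07 at day 6 and from 0.14 to 0.35 at day 12 with 1 library left out, and from 0.19 to 0.33 at day 12 under the other alternatives. For Mx1 at day 12 the log2 fold change ran from 0.88 to 1.31 over every alternative. Signs turned for Mx1, Irf1, Ifi27, Cxcl10, Cxcl9 and Oas1a. At day 6, leaving out the 8 libraries gave 0.36 for Mx1, -0.043 for Irf1 and 0.17 for Ifi27 at 20 mg/mL and -0.54 for Oas1a at 10 mg/mL, which then has 1 exposed library. limma voom gave 0.29 for Mx1, -0.20 for Cxcl10 and 0.14 for Ifi27 at 20 mg/mL and day 6. With 1 library left out, the log2 fold change at 20 mg/mL and day 6 ran from -0.51 to 0.42 for Mx1, from -1.38 to 0.79 for Cxcl10, from -0.41 to 0.18 for Ifi27 and from -0.018 to 0.26 for Irf1, and at day 12 from -0.48 to 0.53 for Cxcl9 and from -0.056 to 0.23 for Irf1. The cause was not tested. The labels tie the replicate numbers to no shared source, and not every same-numbered pair of libraries had deviations that correlated above 0.1: 10 of 18 did at day 6, among them all 6 of replicate 3 (0.197 to 0.529), and 2 of 18 at day 12. Of the 24 libraries, 13 correlated best with their own number, where 3 numbers were possible and some best matches arise without a shared source. The replicate 3 libraries of day 6 all lay outside the 8 low-detection libraries. The part of detection in these correlations was not tested. With the replicate block 0 genes of the set were called in every comparison. Of all 11421 genes, 1 was called at 20 mg/mL and day 6 and 1 for the slope at day 6. The members with an unadjusted p under 0.05 at 20 mg/mL went from 3 to 6 at day 6 (5.19% of all genes) and from 2 to 4 at day 12 (4.4%), and 13 and 28 genes of the set had a higher mean. Over every alternative those numbers at an unadjusted p under 0.05 ran from 2 to 6 at day 6 and from 0 to 8 at day 12. At 5 and 10 mg/mL on day 6 the medians of 0.15 and 0.17 became -0.14 and -0.35 without the 8 libraries. With 3 libraries a group and a biological coefficient of variation of 0.298 (median of the set), most differences were within the spread. Zbp1, Ifit1 and Cxcl10 had the fewest reads of the tested genes, too few for fine differences. Cxcl9 had more reads (1442) and a wide spread, with a coefficient of 0.587.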
